A study of Mus musculus with 6 samples.

Results

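The cytosolic ribosomal protein genes were taken from the liver RNA-Seq table of Asgr1-/- and WT mice by gene symbol. A gene was a member when its symbol was Rpl or Rps followed by a number, with or without a paralog suffix, or was Rplp0, Rplp1, Rplp2 or Rpsa. Rows named as pseudogenes with -ps and the Rps6k kinases were left out. This gave 90 of the 55401 genes in the table, 54 of the large and 36 of the small subunit. The GENCODE annotation lists 84 of them as protein coding and 6 as pseudogenes (Rps4l, Rps12l1, Rpl32l, Rpl6l, Rps3a3 and Rps3a2). A mean FPKM (counts corrected for exonic gene length and library total) of at least 1 over the 6 livers was needed for a test, and 85 members met it, 50 of the large and 35 of the small subunit. The other 5 were Rpl3l, Rpl39l, Rpl10l, Rpl32l and Rps12l1.

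The study compared livers of 3 WT with 3 Asgr1-/- mice, which lack the major subunit of the asialoglycoprotein receptor of hepatocytes, to follow what the loss does to lipid metabolism. All 6 were male, 13 weeks of age, on the C57/BL6 background, and were fasted overnight before the liver was taken. The deletion was made with CRISPR/Cas9 in zygotes and passed on by breeding, so it is not limited to hepatocytes, and each library is the whole liver tissue of 1 mouse. Libraries held 19842637 to 22080809 counts, and Asgr1 itself had 11716 to 15894 counts in the WT group and 36 to 62 in Asgr1-/- livers.

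The cytosolic ribosome joins a large subunit, which forms peptide bonds and holds the exit tunnel of the new chain, with a small subunit, which holds the mRNA and reads its codons. Cells need their proteins in matched amounts, and unassembled ones are degraded. Most of the mRNAs begin with a terminal oligopyrimidine (TOP) tract, a C followed by a run of pyrimidines, through which the growth pathway of mTORC1 and the RNA-binding protein LARP1 control their translation and stability, and in liver this control follows feeding and fasting.

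The starts of 10 members are shown because the TOP tract is the feature that this family is best known to share, and because they include members at both ends of the fold changes below. Each line is a window of 30 bases from RefSeq (build GRCm38.p6), 15 before the annotated start and 15 from it on, 5′ to 3′ on the gene's own strand. Capitals mark the tract, defined as a C followed by at least 4 pyrimidines (C or T) and beginning within 10 bases of the start. Where several such beginnings fit, the one nearest the start is marked, so a run of pyrimidines can reach further upstream than the capitals. Rpl10a has a pair of annotated starts, both shown. Rpl35a has 3, of which the only one with a tract is shown.
Rplp2, chr7:141447636-141447665, plus strand: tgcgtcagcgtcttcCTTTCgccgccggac
Rps15a, chr7:118116133-118116162, minus strand: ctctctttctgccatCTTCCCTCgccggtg
Rpl28, chr7:4792950-4792979, plus strand: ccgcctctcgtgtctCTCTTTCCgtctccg
Rps27, chr3:90213634-90213663, minus strand: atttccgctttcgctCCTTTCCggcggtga
Rpl35a, chr16:33056467-33056496, plus strand: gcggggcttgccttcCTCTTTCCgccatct
Rpl12, chr2:32961697-32961726, plus strand: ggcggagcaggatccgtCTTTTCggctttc
Rpl13a, chr7:45128731-45128760, minus strand: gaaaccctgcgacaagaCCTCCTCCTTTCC
Rpl10a, first start, chr17:28328456-28328485, plus strand: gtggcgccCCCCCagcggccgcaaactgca
Rpl10a, second start, chr17:28328550-28328579, plus strand: gctctatttgagcgcatgcgcaaagcgctc
Rps16, chr7:28350674-28350703, plus strand: cccgcttctgtcgtgacgtagcactcaatg
Rps13, chr7:116334176-116334205, minus strand: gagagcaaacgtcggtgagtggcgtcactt

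In the first 5 lines the marked tract began at the annotated start shown. In Rplp2, Rpl28, Rps27 and Rpl35a a beginning that also fits the definition lies upstream of it. In Rps16 and Rps13 no tract began within 10 bases of the start, and in Rps16 the letters cttct lie just outside that limit. RefSeq held 77 promoter windows for 65 of the 90 members. A tract began exactly at the start in 18.18% of these windows, against 2.51% of the 32851 promoters of all genes, and within 10 bases of it in 54.55% against 30.72%. In the 9620 promoters of the tested genes the shares were 2.51% and 31.98%. In windows running from 250 bases before the start to 50 after it, read on both strands, CCGGAAG (the core bound by ETS-family factors) was found in 35.06% of member windows in 8.86% of all promoters and in 18.58% of those of tested genes. AAGATGGC (the core of the YY1 motif) was found in 10.39% of member windows, against 2.75% of all promoters and 4.81% of those of tested genes. TATAAA was found in 10.39% of member windows, below the 13.62% of all promoters but above the 7.8% of those of tested genes. CCGGAAG ends and AAGATGGC begins with the letters AAG, so a single stretch can hold both. The 36 tested members with a tract in any window had a median log2 fold change between the genotypes of 0.18. The 25 with a promoter window but no tract had 0.17. A tract so defined can lie wholly upstream of the start, as in the first Rpl10a line. This split therefore need not separate mRNAs that begin with a tract from the others. A match is a description of the letters in these windows.

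Ribosomal protein genes stood slightly higher in Asgr1-/- than in WT livers, in both subunits, and no single member passed the test. Their counts made up 1.32%, 1.10% and 1.24% of the library in WT livers 1, 2 and 3, against 1.42%, 1.33% and 1.54% for Asgr1-/- livers 1, 2 and 3. The groups did not overlap, but WT liver 1 and Asgr1-/- liver 2 almost met. The means were 1.22% ± 0.114 (SD, n = 3 mice) and 1.43% ± 0.105 (SD, n = 3 mice), a ratio of 1.17. In bulk tissue, a different number of cells of a type and a different amount of RNA per cell cannot be told apart.

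**Figure D1:**
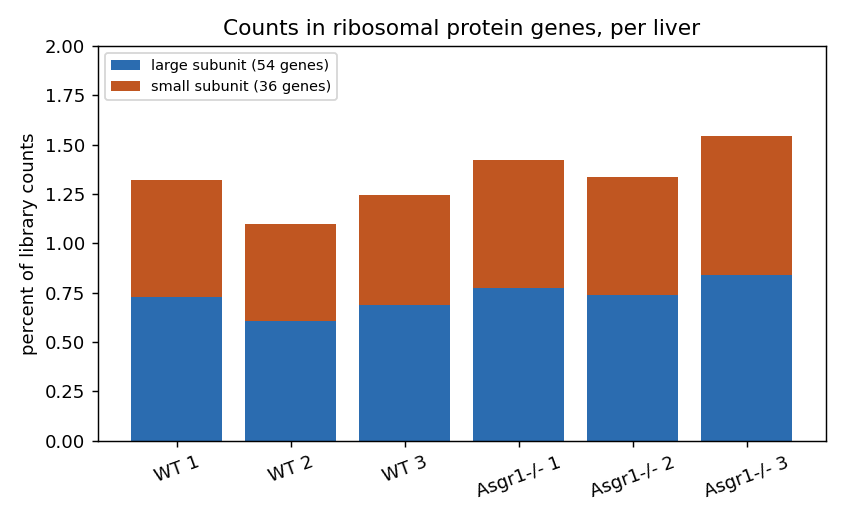
Percent of the library's counts in the 54 large subunit genes (blue) and the 36 small subunit genes (orange), 1 stacked bar per liver, 3 WT and 3 Asgr1-/-. The total ran from 1.10% to 1.32% in WT and from 1.33% to 1.54% in Asgr1-/- livers.

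The members were tested with edgeR's quasi-likelihood test within a fit of all 10167 tested genes, with p adjusted by Benjamini-Hochberg over all of them. At an adjusted p under 0.05, 0 of 85 members were called, beside 0.295% of all tested genes (30 genes). The smallest adjusted p of a member was 0.114. DESeq2 called 2 members at the same threshold, Rpl10a (adjusted p = 0.00905) and Rps4l (adjusted p = 0.0419), 2.4% of the members beside 3.89% of all tested genes. Limma on log2 FPKM called 0 members with a pseudocount of 0.1 or 1, beside 0.108% and 0.157% of all tested genes. At an unadjusted p under 0.05, 12 members (14.1%) were higher in Asgr1-/- livers, against 7.29% of all tested genes. None of the members was lower at that p, against 8.2% of all tested genes.

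The number of 12 depended on single livers. It was 33 without WT liver 1, 5 without WT liver 2 and 4 without Asgr1-/- liver 3. The number of such higher genes among all tested genes, 741 in the full fit, was then 910, 571 and 479.

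By direction alone, 76 of 85 members (89.4%) had a log2 fold change above 0, against 46.7% of all tested genes. The median was 0.18 over members, a fold of 1.13, and -0.02 over all tested genes. Members share libraries and are not independent, so these counts and medians carry no test. In 20 members (23.5%) each Asgr1-/- liver lay above each WT liver, against 10.9% of all tested genes. In 0 members each Asgr1-/- liver lay below each WT liver, against 10.9% of all tested genes.

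The medians of the subunits lay close together. The large subunit had a median log2 fold change of 0.17, with quartiles of 0.11 and 0.20, and 45 of its 50 members were above 0. The small subunit had a median of 0.19, with quartiles of 0.13 and 0.27, and 31 of its 35 members were above 0. The unadjusted p was under 0.05 for 7 large and 5 small subunit members. The median standard error of a member, 0.14, was close in size to these shifts.

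**Figure D2:**
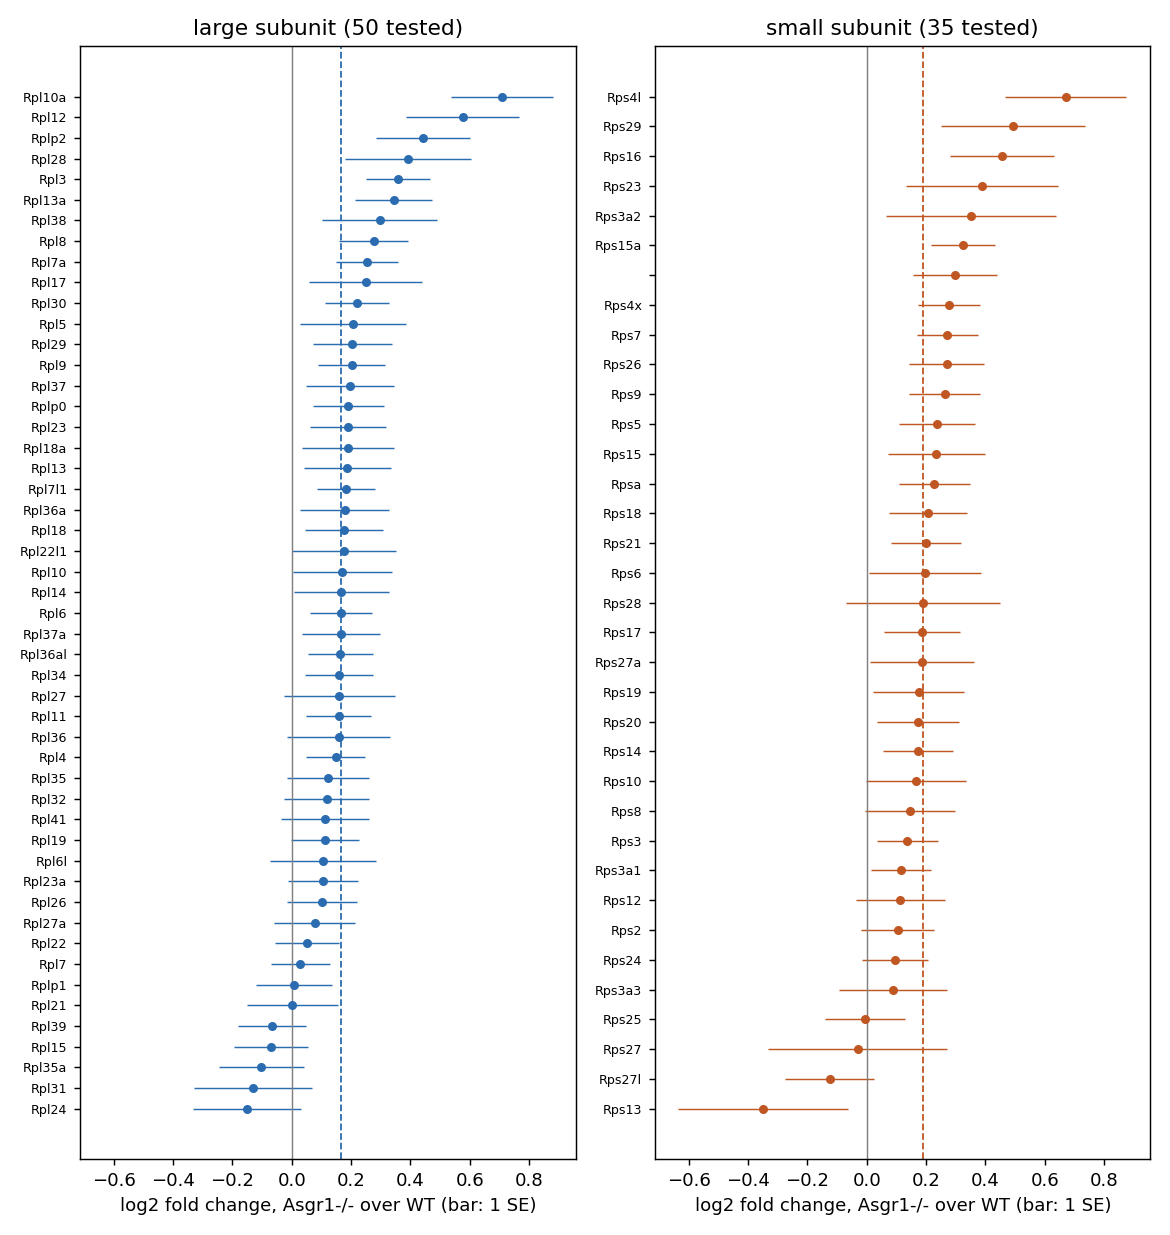
Log2 fold change of Asgr1-/- over WT for the 50 tested large subunit genes (left) and 35 tested small subunit genes (right), with bars of 1 standard error and a dashed line at each subunit's median. Of the 85 points, 76 lie above 0, the medians are 0.17 and 0.19, and a single small subunit point is drawn without its name.

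Liver by liver, most of the family moved up or down together. As a difference from the average WT liver, the median log2 CPM (counts scaled to library size with TMM factors) of the large subunit members was 0.18, -0.14 and -0.03 for WT livers 1, 2 and 3, against 0.12, 0.10 and 0.28 for Asgr1-/- livers 1, 2 and 3. The small subunit medians were 0.16, -0.15 and -0.02 in WT, and 0.20, 0.06 and 0.35 in Asgr1-/- livers. On this scale the genotypes overlapped, because WT liver 1 lay above 2 of the 3 Asgr1-/- livers for the large subunit and above 1 of them for the small subunit. Of the 85 members, 52 had their highest CPM in Asgr1-/- liver 3 and 56 had their lowest in WT liver 2, while the median over all tested genes lay between -0.01 and 0 in every liver.

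**Figure D3:**
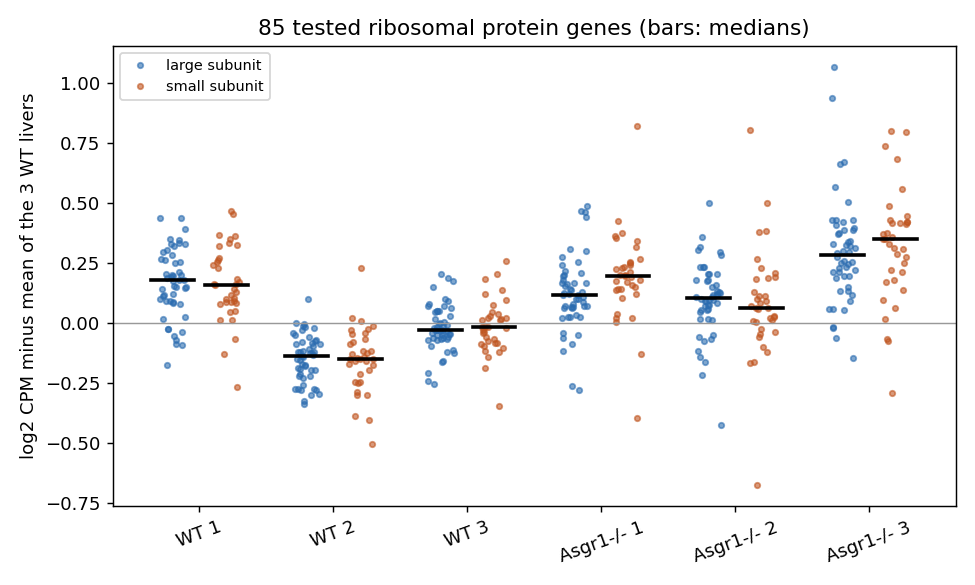
Log2 CPM of each of the 85 tested members in each liver, minus the mean of the 3 WT livers for that gene, with large subunit genes in blue, small subunit genes in orange and medians as black bars. WT liver 2 is lowest in both subunits (-0.14 and -0.15) and Asgr1-/- liver 3 highest (0.28 and 0.35).

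The balance between the subunits, given as the large minus the small subunit median, was 0.02, 0.01 and -0.01 in the WT group and -0.08, 0.04 and -0.07 in Asgr1-/- livers. The Asgr1-/- livers spanned the WT values on both sides. The mean difference between the genotypes was -0.04, less than the SD of 0.066 among the 3 Asgr1-/- livers. In counts, the large subunit genes had 1.23 ± 0.0141 (SD, n = 3 mice) times the counts of the small subunit genes in the WT group and 1.21 ± 0.0219 (SD, n = 3 mice) in the Asgr1-/- group.

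The difference of WT liver 1 from the other WT livers varied with the length of the coding sequence. Over the 81 protein coding members tested, the log2 ratio of WT liver 1 to WT liver 2 had a median of 0.37 in the 39 members with a coding sequence under 453 bases and 0.22 in the other 42. Across these genes, Spearman's rho of the ratio with coding length was -0.43 and Pearson's r with log2 coding length was -0.41, and the points share both libraries. For WT liver 1 over WT liver 3, rho was -0.47, and for WT liver 3 over WT liver 2 it was 0.05. Among Asgr1-/- livers, rho was -0.23 for liver 3 over 2, -0.22 for liver 3 over 1 and -0.13 for liver 1 over 2. The fold change between the genotypes had a rho of 0.17 with coding length, and its medians were 0.17 in the shorter and 0.19 in the longer members. A separate edgeR fit had offsets for gene length, taken as exonic size. This is another measure than coding length, so the fit does not address the trend above. It left 9 members (10.6%) higher at an unadjusted p under 0.05, beside 7.87% of all tested genes, and 0 lower.

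Among large subunit members, Rpl10a (ENSMUSG00000037805), a protein of the L1 stalk that guides the spent tRNA out of the ribosome, had the smallest p. It had 27.4, 25.5 and 30.9 CPM in the WT group and 39.1, 39.4 and 58.5 CPM in Asgr1-/- livers. All Asgr1-/- livers lay above all WT livers, with liver 3 well above the rest. The log2 fold change was 0.71 (standard error 0.17, unadjusted p = 0.00248, adjusted p = 0.114 in edgeR), or 1.63-fold. With any 1 liver left out, the log2 fold change ran from 0.50 to 0.82. Of the 75-base windows of the main Rpl10a transcript, 87.6% also occur in other genes, 4 in number. How reads matching several genes were counted is not stated, so the counts of Rpl10a are uncertain as a level. Whether this sharing bears on the fold change of Rpl10a was not tested.

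Rpl3, which lies near the peptidyl transferase centre, had 128, 136 and 145 CPM in the WT group and 185, 160 and 180 CPM in Asgr1-/- livers. Its groups did not overlap, and the log2 fold change was 0.36 (SE 0.11, adjusted p = 0.17 in edgeR). The Rpl3 transcript shares 83.2% of such windows with other genes, 8 in number, so the same uncertainty holds for its counts. Rpl13a, known in human myeloid cells for a role outside the ribosome in silencing inflammatory mRNAs, had 130, 119 and 154 CPM in the WT group and 155, 166 and 189 CPM in Asgr1-/- livers. Its lowest Asgr1-/- liver lay just above its highest WT liver, with a log2 fold change of 0.34 (adjusted p = 0.256). Rpl8, a core protein near the peptidyl transferase centre, and Rpl7a, a protein of the solvent side, also had an unadjusted p under 0.05, with log2 fold changes of 0.28 and 0.26.

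The stalk of the large subunit recruits the translation factors, and the log2 fold changes of its proteins ran from 0.01 to 0.58. Its base is formed by Rpl12 and Rplp0, which carries dimers of the acidic proteins Rplp1 and Rplp2. Rplp2 had 230, 165 and 210 CPM in the WT group and 275, 229.9 and 316 CPM in Asgr1-/- livers, where WT liver 1 and Asgr1-/- liver 2 nearly met. Its log2 fold change was 0.44 (standard error 0.16, adjusted p = 0.23 in edgeR).

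Rplp1, the partner of Rplp2 in the dimers, had 620.1, 527 and 574 CPM in the WT group and 549, 519 and 664 CPM in Asgr1-/- livers. These values overlapped throughout, and the log2 fold change was 0.01 (SE 0.13). Its sign turned under a stricter filter, under length offsets and with some livers left out. Rplp0 had 560.4, 560.8 and 674 CPM in the WT group and 658, 650.1 and 741 CPM in Asgr1-/- livers. WT liver 3 lay among the Asgr1-/- livers, and the log2 fold change was 0.19 (adjusted p = 0.483).

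Rpl12 was a low gene, with 222, 199 and 224 counts in the WT group and 337, 254 and 420 counts in Asgr1-/- livers. Its groups did not overlap, and the log2 fold change was 0.58 (SE 0.19, adjusted p = 0.203). Without any 1 liver it ran from 0.36 to 0.73. All 4 of these stalk genes were above 0, against 46.7% of all tested genes. At an unadjusted p under 0.05, 2 were higher, against 7.29% of all tested genes. Their median was 0.32. The list as first written had also held Rpl10, which is not a stalk protein (log2 fold change 0.17), and its median was 0.19.

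The 9 proteins that line or surround the exit of the polypeptide tunnel, where chaperones and the signal recognition particle dock, had a median log2 fold change of 0.10, and none had an unadjusted p under 0.05. Of these, 7 were above 0, against 46.7% of all tested genes. Rpl4, which reaches into the tunnel, had 506, 525 and 543 CPM in the WT group and 602, 573 and 568 CPM in Asgr1-/- livers. The groups did not overlap, and the log2 fold change was 0.15 (SE 0.10, adjusted p = 0.515). Rpl31 and Rpl39, also of the tunnel exit, had log2 fold changes of -0.13 and -0.07.

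Rpl5 and Rpl11 form a particle with the 5S rRNA that can bind MDM2 and so stabilize p53, and Rpl23, Rps7 and Rps27l also bind MDM2. In this list of 5, 4 were above 0, against 46.7% of all tested genes. Rps7 had 86.8, 81.03 and 77.5 CPM in the WT group and 97.1, 93.4 and 106 CPM in Asgr1-/- livers. Its livers did not overlap, and the log2 fold change was 0.27 (SE 0.10, adjusted p = 0.258). The log2 fold changes of Rpl5 and Rpl11 were 0.21 and 0.16, and neither had an unadjusted p under 0.05.

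In the small subunit the members with the smallest p were Rps4l, Rps15a, Rps4x, Rps7 and Rps16. Rps15a, a protein of the small subunit body, had 137, 124 and 122 CPM in the WT group and 162, 147 and 170 CPM in Asgr1-/- livers. Each Asgr1-/- liver lay above each WT liver, with a log2 change of 0.32 (SE 0.11, unadjusted p = 0.0133, adjusted p = 0.202). Rps16, whose tail contacts the tRNA in the P site, had 74.8, 51.1 and 81.1 CPM in the WT group and 87.0, 88.2 and 109 CPM in Asgr1-/- livers. WT liver 2 stood below the other WT livers, and the log2 fold change was 0.46 (SE 0.17, adjusted p = 0.261).

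Rps4x and Rps4l belong to the same gene family. Rps4x, the X-linked gene, had 212, 218 and 238 CPM in the WT group and 284, 254 and 272 CPM in Asgr1-/- livers, without overlap (log2 fold change 0.28, SE 0.10, adjusted p = 0.253). Rps4l, which the annotation lists as a transcribed pseudogene, had 42.9, 23.7 and 29.3 CPM in the WT group and 54.8, 43.9 and 53.96 CPM in Asgr1-/- livers. WT liver 1 and Asgr1-/- liver 2 lay within 1 CPM of each other, and the log2 fold change was 0.67 (SE 0.20, adjusted p = 0.175). With any 1 liver left out, the log2 fold change of Rps4l ran from 0.50 to 0.94. It passed the test only without WT liver 1 (0.94, adjusted p = 0.0421 in edgeR), in a fit that called 52 of all 10167 genes.

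The 8 proteins along the mRNA path and the decoding region were all above 0, against 46.7% of all tested genes. Their median was 0.21, and none had an unadjusted p under 0.05. Rps2, at the mRNA entry, and Rps15, near the decoding site, had log2 fold changes of 0.10 and 0.24. Without Asgr1-/- liver 3 these were 0.02 and 0.11, and without WT liver 2 they were 0.04 and 0.10. Rpsa, the laminin receptor precursor that sits near the mRNA exit, had 515, 461 and 563 CPM in the WT group and 587, 559 and 655 CPM in Asgr1-/- livers. WT liver 3 lay just above Asgr1-/- liver 2, and the log2 fold change was 0.23 (SE 0.12, adjusted p = 0.399).

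**Figure D4:**
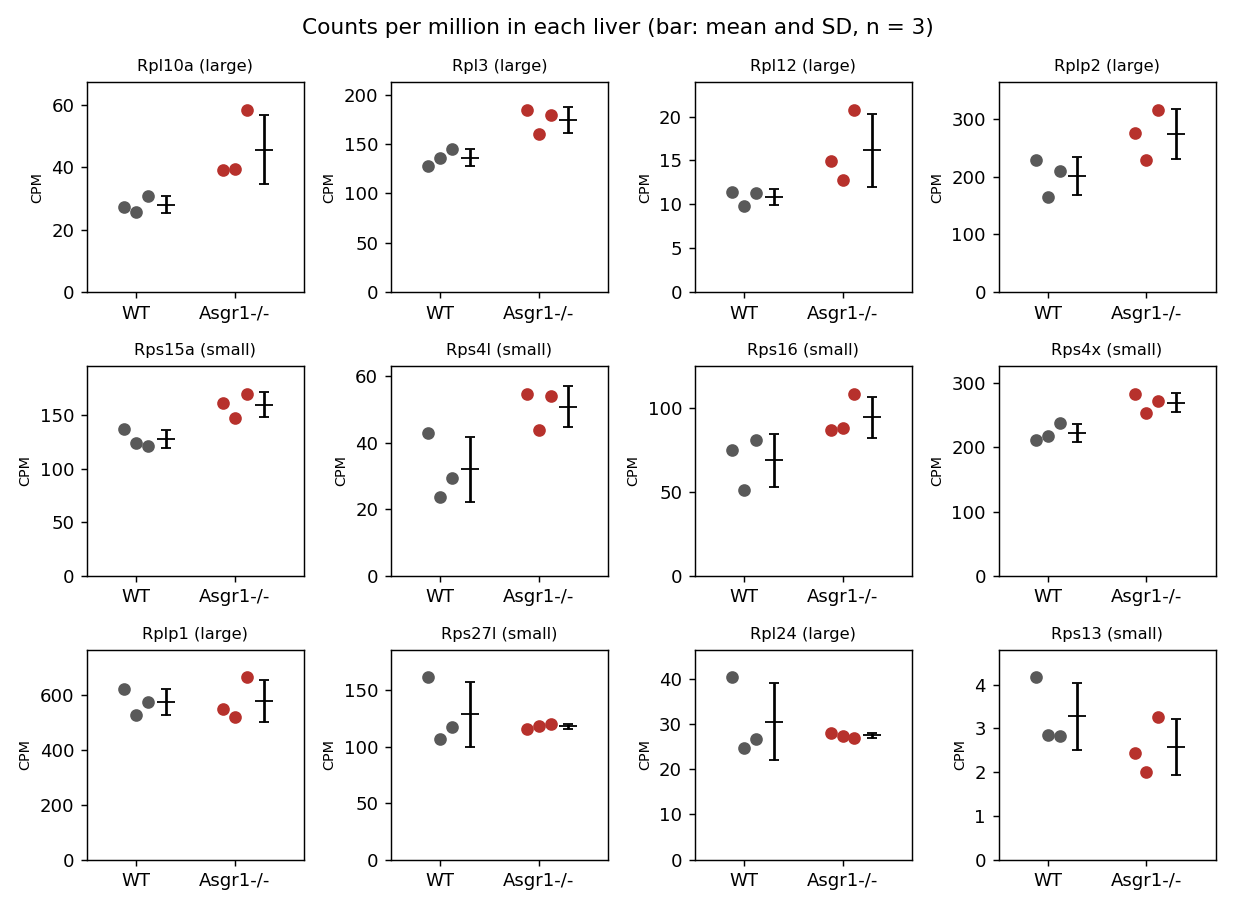
CPM in each liver for 12 members, WT in grey and Asgr1-/- in red, with the mean and SD (n = 3) as black bars and each axis starting at 0. The upper 8 have log2 fold changes of 0.28 to 0.71 and an unadjusted p under 0.05, and the lower 4 (Rplp1, Rps27l, Rpl24 and Rps13) have 0.01 to -0.35 and overlapping livers.

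The 9 members below 0 were Rpl24, Rpl31, Rpl35a, Rpl15, Rpl39, Rps13, Rps27l, Rps27 and Rps25. In all of them the genotypes overlapped. Rps13 had the lowest value, from few counts: 81, 58 and 56 in the WT group and 55, 40 and 66 in Asgr1-/- livers, with a log2 change of -0.35 (SE 0.29, adjusted p = 0.589). Rpl24, at the bridge between the subunits, had 40.4, 24.6 and 26.6 CPM in the WT group and 28.1, 27.5 and 26.9 CPM in Asgr1-/- livers. Its log2 fold change of -0.15 came with WT liver 1 alone standing high, and without that liver it was 0.10.

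Several genes have a paralog in the genome whose protein can take the parent's place, and the ratio of their FPKM was compared between the genotypes. In 4 of 7 pairs both genes had at least 10 counts in every liver. Rps27l, a p53-induced paralog of Rps27, was 77.1, 63.2 and 90.4 times as abundant as Rps27 in the WT group and 55.5, 77.5 and 88.4 times in Asgr1-/- livers. The ratios overlapped widely. This large excess has to be read with the low count of Rps27, of whose transcript 98.5% of 75-base windows also occur in other genes.

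Rpl36al stood at 14.7, 14.3 and 14.2 times Rpl36a in the WT group and at 15.5, 13.8 and 13.7 times in Asgr1-/- livers. Rpl36a shares 84.6% of its windows, and Rpl36al 61.3%. Rpl22l1, a paralog of the RNA-binding protein Rpl22, was at 0.189, 0.164 and 0.159 of Rpl22 in the WT group and 0.208, 0.166 and 0.188 in Asgr1-/- livers. Rpl7l1 was at 0.130, 0.151 and 0.156 of Rpl7 in the WT group and 0.160, 0.169 and 0.156 in Asgr1-/- livers.

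The log2 differences of the ratios between the genotypes were 0.13 for Rpl22l1, -0.07 for Rps27l, 0.15 for Rpl7l1 and -0.01 for Rpl36al. In exact two-sided permutation tests the p values were 0.3, 0.8, 0.2 and 1, adjusted over the 4 pairs to 0.6, 1, 0.6 and 1. The smallest p that 3 against 3 livers allow is 0.1. The paralogs known from striated muscle and testis were at or near 0. Rpl3l had 1 to 7 counts in every liver, and no 75-base window of its transcript occurs in another gene. Rpl39l had 1 count in 1 liver and Rpl10l 0 counts in all 6.

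Levels per length differed far more among the members than between the genotypes, and the highest protein coding member was 1064 times the lowest tested one. FPKM divide by all annotated exonic bases, which can exceed the main transcript, so this span partly carries the annotated size. Exonic bases against main transcript bases were 2691 and 589 in Rps13, and 499 and 499 in Rplp1. By mean CPM in the WT group, Rps2 (719) stood above Rplp1 (574). Per length, Rplp1 was the highest with a mean of 1140 FPKM over the 6 livers, then Rpl36 with 651, Rps15 with 572, Rps2 with 403 and Rplp0 with 382. Of the tested members, 29 had a mean of at least 100 FPKM and 21 were under 10 FPKM. Rps13 with 1.07 FPKM, Rpl5 with 1.59 FPKM and Rps27 with 2.03 FPKM were the lowest. The median was 48.1 FPKM in the large and 62.3 FPKM in the small subunit, against 5.13 FPKM over all tested genes.

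These levels went with how much of a gene's sequence also occurs elsewhere. For each protein coding member, the percent of 75-base windows of its main transcript found unchanged in another gene was counted in GENCODE. The 14 members with less than 25% shared windows had a median of 129 FPKM and none under 10 FPKM. The 48 with 25% to 75% had a median of 70.4 FPKM and 11 under 10, and the 19 with at least 75% had a median of 15.02 FPKM and 8 under 10. Across the 81 genes, Spearman's rho was -0.41 and Pearson's r on log2 FPKM was -0.42, and all points share the same libraries. The annotated exonic size of each gene also enters its FPKM here.

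Exceptions included Rpl36, with 651 FPKM and 70.9% of windows shared, and Rps2, with 403 FPKM and 71.1% shared. The windows of Rps2 were found in 50 other genes. Conversely, Rpl27a, with 34.4% shared, had 5.69 FPKM. The table holds 319 -ps rows, of which 147 had a count, and their counts came to 7.23% to 7.80% of the members' counts in each liver. Counts of members with near-identical copies are therefore uncertain as levels, and how reads matching several genes were counted is not stated. The cause of the low levels was not tested. Spearman's rho of sharing with the log2 fold change was -0.05, and the fold change had medians of 0.16, 0.18 and 0.19 in the 3 classes from least to most shared.

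**Figure D5:**
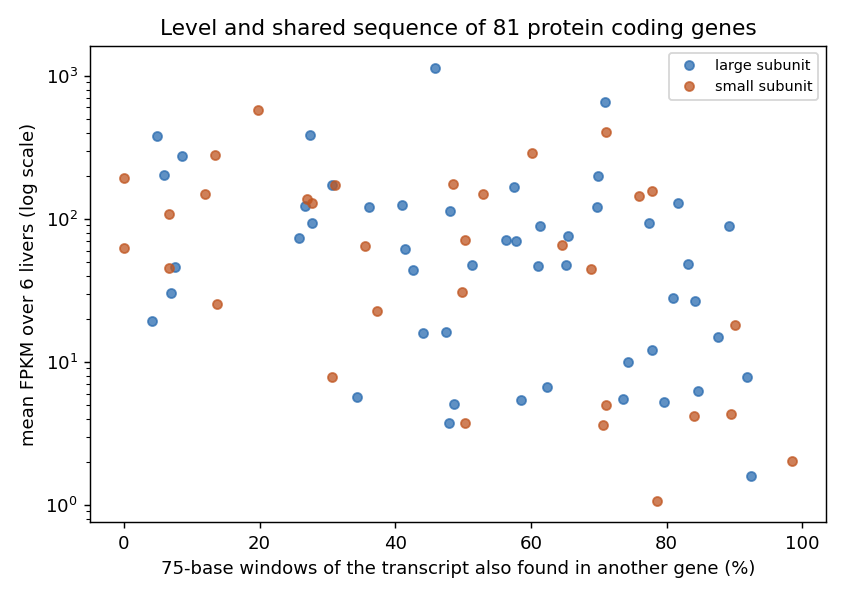
Mean FPKM over the 6 livers (log scale) against the percent of 75-base transcript windows found in another gene, for 81 protein coding members, large subunit in blue and small in orange. All 14 genes under 25% lie above 10 FPKM, and the lowest genes (Rps13, Rpl5 and Rps27) lie above 75%.

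Ribosomal proteins whose symbols the rule does not cover had values within the range of the members. Rack1, a scaffold on the small subunit head, had 401, 387 and 430.3 CPM in the WT group and 480.0, 439.7 and 496 CPM in Asgr1-/- livers, a log2 fold change of 0.22 (adjusted p = 0.364) without overlap. Fau, which encodes Rps30 fused to a ubiquitin-like protein, had a log2 fold change of 0.20 (adjusted p = 0.49) with overlapping livers. Among genes whose human forms are mutated in Diamond-Blackfan anemia, a failure of red cell production from lack of a ribosomal protein, 10 of 12 were above 0, with a median of 0.17. The share above 0 over all tested genes was 46.7%.

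The wider translation machinery was counted from lists, and none of its genes passed an adjusted p under 0.05 in either direction. Beside each list below stand the shares over all tested genes. These were 46.7% above 0, and 7.29% higher and 8.2% lower at an unadjusted p under 0.05. Of 46 tested ribosome biogenesis factors, 41 were above 0 with a median of 0.23, and 11 were higher at an unadjusted p under 0.05. Mrto4, which helps to assemble the stalk, had 26.3, 21.3 and 23.0 CPM in the WT group and 34.4, 35.6 and 38.7 CPM in Asgr1-/- livers, a log2 change of 0.62 (SE 0.12, adjusted p = 0.0676). In this list the liver medians did not overlap between the genotypes, at -0.05 to 0.04 in WT and 0.20 to 0.24 in Asgr1-/- livers.

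Of 33 initiation factors, 26 were above 0 with a median of 0.18, and 7 were higher and 2 lower at an unadjusted p under 0.05. Their liver medians did not overlap either, at -0.05 to 0.04 in WT and 0.15 to 0.23 in Asgr1-/- livers. Eif3d, a subunit of the factor that loads mRNA on the small subunit, had the smallest p (log2 fold change 0.47, adjusted p = 0.0797), and Eif6, which keeps the subunits apart, had 0.49 (adjusted p = 0.122). Of 24 elongation factors and other TOP mRNAs, 19 were above 0 with a median of 0.09, and 2 were higher and 0 lower at an unadjusted p under 0.05. The liver medians of this list almost met, with the highest WT liver at 0.0661 and the lowest Asgr1-/- liver at 0.0674. Eef1g, a subunit of the factor that delivers tRNA, had 0.42 (adjusted p = 0.146). Of 19 genes of RNA polymerase I and its factors, 12 were above 0 with a median of 0.06, and 0 had an unadjusted p under 0.05. Of 21 genes of the mTORC1, LARP1 and MYC axis, 9 were above 0 with a median of -0.06, and 4 were lower and 0 higher at an unadjusted p under 0.05. Sesn1, an inhibitor of mTORC1 in nutrient shortage, had -0.70 (adjusted p = 0.119).

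Other liver transcripts also varied among these livers. The 9 tested hepatocyte markers, mostly albumin, summed to 89252 to 98007 CPM in WT and 79799 to 84628 CPM in Asgr1-/- livers, and 0 passed the test, with albumin alone at 49640 to 70896 CPM. Without the 10 most abundant genes in the denominator, the share of ribosomal protein counts was 1.16 times as high in Asgr1-/- as in WT livers, and WT liver 1 (1.62%) then lay above Asgr1-/- liver 2 (1.61%). The 14 Kupffer cell and macrophage markers summed to 97.9, 271 and 892 CPM in WT livers 1, 2 and 3, against 219 to 345 CPM in Asgr1-/- livers, and 0 of 14 passed the test. Of these markers 0 had a log2 fold change above 0, and the median was -0.64. The 14 endothelial markers summed to 305 to 633 CPM in WT and 350 to 475 CPM in Asgr1-/- livers, and 0 passed. The 7 tested of 12 stellate cell markers (214 to 392 against 276 to 315 CPM) also had 0 that passed. So did the 5 erythroid markers (199 to 307 against 183 to 287 CPM). The 3 cholangiocyte markers summed to 35.99 to 45.2 CPM in WT and 47.2 to 58.7 CPM in Asgr1-/- livers, with a median log2 fold change of 1.20. Among them Epcam (1.30, adjusted p = 0.277) and Krt19 (1.20, adjusted p = 0.281) had an unadjusted p under 0.05, and Spp1 had 0.19. Of 9 lymphocyte markers only Ighm was tested, and it was lower in Asgr1-/- livers (log2 fold change -2.24, adjusted p = 0.0215), while none of 4 neutrophil markers reached the level for a test and Ly6g was at 0. The part of these differences in the ribosomal protein values was not tested.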

How the data were processed

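RNA-Seq measured liver RNA in 3 WT and 3 Asgr1-/- mice, with 1 library per mouse. The table deposited by the authors gives raw counts and FPKM of each gene and its exonic size in bases. FPKM made by the authors equal the counts over exonic size and library total within 0.005. Sequences were processed by GENEWIZ, per the paper's methods. The submitters' processing notes name GRCm38 and DESeq2 1.6.3, and which aligner and counter ran was not given in the sources used here. Gene ontology columns were not used.

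Members and lists were chosen with earlier results of these data known. Genotypes come from the labels. Genes whose FPKM averaged 1 or more (10167 genes, 98.9% of counts) were tested with edgeR 4.0.16 (quasi-likelihood test, TMM, two-sided, Benjamini-Hochberg over all of them), after the fit had been tested on simulated data. CPM are counts scaled with TMM factors. The edgeR p-values set the genotype difference against the spread between mice, 3 per genotype. That spread was estimated with information shared across all tested genes. Library totals were 19842637 to 22080809 counts, and no library repeated another (chi-square per degree of freedom 17.5 to 48.9). Gene types and transcripts came from GENCODE M21, which holds 99.5% of the IDs. Promoter windows came from RefSeq.

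Named members were, per subunit, up to 5 in each direction with the smallest p, the 5 highest and 3 lowest by FPKM, the stalk proteins, Rpsa and the paralogs, and the members without overlap by the 3 largest changes. Outside the family up to 3 genes per list were named. Rpl7a, Rpl10, Rpl11, Rpl23, Rpl27a, the parents of the paralogs and Asgr1 were named in addition, after their values were seen. Alternatives were other normalizations, filters, DESeq2 1.42.0, limma 3.58.1, length offsets, a replicate block and leaving out each liver. R 4.3.3, pandas and matplotlib were used. Values of some genes are not reported here.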

Additional observations from a re-analysis of the deposited data

How the results depend on the processing

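The medians of both subunits stayed above 0 in every fit, at 0.13 to 0.23 for the large and 0.15 to 0.24 for the small subunit, and at 0.11 to 0.26 and 0.13 to 0.29 when 1 liver was left out. The share ratio ran from 1.16 to 1.18 (1.12 to 1.22 with 1 liver left out), and the large minus small difference from -0.05 to -0.03 (-0.08 to -0.02). Members called were 4 of 88 without a filter on low values (Rpl10a, Rpl12, Rps16 and Rps4l), beside 618 of all 24757 genes. In DESeq2 they were 2 of 85, beside 396 of all 10167 genes. With 1 liver left out they were 0 to 1 of 85, beside 3 to 305 of all 10167 genes. All genes called, 30 in the reported fit, were 618 without a filter, 70 at a mean FPKM of at least 0.1, 12 at one of at least 5, 396 in DESeq2, 11 and 16 in limma with pseudocounts of 0.1 and 1, 84 in robust edgeR and 3 to 305 with 1 liver left out. The cause was not tested. With the replicate block, 0 members and 23 genes were called. The same-number livers correlated at -0.13, 0.05 and -0.03, within the -0.20 to 0.18 of livers with different numbers. These values show no sign of pairing by number, and with 3 livers per genotype they cannot exclude it.

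Among the named members, the following changed sign. Rps25 was 0.0022 under upper quartile normalization, 0.0485 with library size only, 0.0047 without a filter, 0.018 at a mean FPKM of at least 0.1, 0.0636 and 0.0626 in limma and 0.0087 with the replicate block. Rps27 was 0.0272 with library size only and 0.0229 and 0.0162 in limma. Rplp1 was -0.0127 at a mean FPKM of at least 5 and -0.0331 with length offsets. With 1 liver left out, the ranges were -0.28 to 0.10 for Rpl24, -0.20 to 0.0357 for Rpl35a, -0.12 to 0.0276 for Rpl39, -0.12 to 0.14 for Rps25, -0.23 to 0.15 for Rps27, -0.24 to 0.0715 for Rps27l, -0.10 to 0.0923 for Rplp1, -0.13 to 0.0246 for Rpl15 and -0.27 to 0.0136 for Rpl31. The paralog ratio difference ran from -0.21 to 0.12 for Rps27l to Rps27 and from -0.0651 to 0.0206 for Rpl36al to Rpl36a. The standard error of a member had a median of 0.14 with 3 livers per genotype.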
